A study of Rattus norvegicus with 2 samples.

Results

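The genes described here encode matrix metalloproteinases, the related Adam and Adamts proteases, their inhibitors and the plasminogen activators. Members were chosen by name: every probe set that the platform annotation gives to a single gene called Mmp, Timp, Adam or Adamts followed by a number, or called Plau, Plaur, Plat, Reck or Bsg. This gave 56 genes out of 14217 and 81 probe sets out of 20826. RNA came from microglial cells of Sprague Dawley rats, which are macrophages that live in the brain, grown in medium with serum. The resting group (1 array) had no exposure, and the other group (1 array) had 3 h of oxygen-glucose deprivation (OGD), which models ischaemia in culture. The labels do not state the age of the animals, how the cells were prepared or whether animals were pooled.

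Matrix metalloproteinases are zinc enzymes made as inactive zymogens, and they cut collagen, elastin, proteoglycans and many signalling proteins outside the cell. Adam proteases sit in the membrane and release the outer parts of other membrane proteins, while Adamts proteases are secreted and act mostly on matrix proteins. Tissue inhibitors of metalloproteinases (Timps) block these enzymes, and plasmin, made by the plasminogen activators, can activate several zymogens. In the ischaemic brain this system is known for opening the blood-brain barrier, and microglia are among its sources.

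Values are deposited intensities on a linear scale, with a median over all probe sets besides controls of 19.6 at rest and 19.7 after OGD. The median served as the floor: a gene was called measured when its brightest probe set lay above it on at least 1 array, and lower values were raised to it. Differences are log2 OGD minus log2 resting, and the 1.5-fold threshold is the one in the series' design text. With a single array in each group, differences have no test, and the error between cultures is unknown. The spread available was that between probe sets of the same gene, with an SD of 0.15 on the log2 scale (1.11-fold) over 1902 genes. Of the 18 microglial and macrophage markers with a probe set, 17 were above the median, where 67.4% of all genes were. Trem2, Cd68 and Laptm5, the brightest at rest, were among the 17, and Fcer1g was under the median.

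Of the 56 genes, 30 were measured, 27 of them above the median on both arrays, 1 at rest only and 2 after OGD only. That is 53.6% of these genes, where 67.4% of all genes were measured. Counted by probe set, 36 of 81 (44.4%) were above the median, against 58.7% of all probe sets naming a single gene. The families differed in this share. Measured were 14 of 18 Adam genes, 6 of 17 Mmp genes, 4 of 12 Adamts genes, 2 of 4 Timp genes and 2 of the 3 genes of the plasminogen activators and their receptor, besides Reck and Bsg. A low intensity can come from a poor probe set as well as from little RNA, so a gene under the median is not shown to be absent, and intensities of different genes do not rank their expression.

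**Figure D1:**
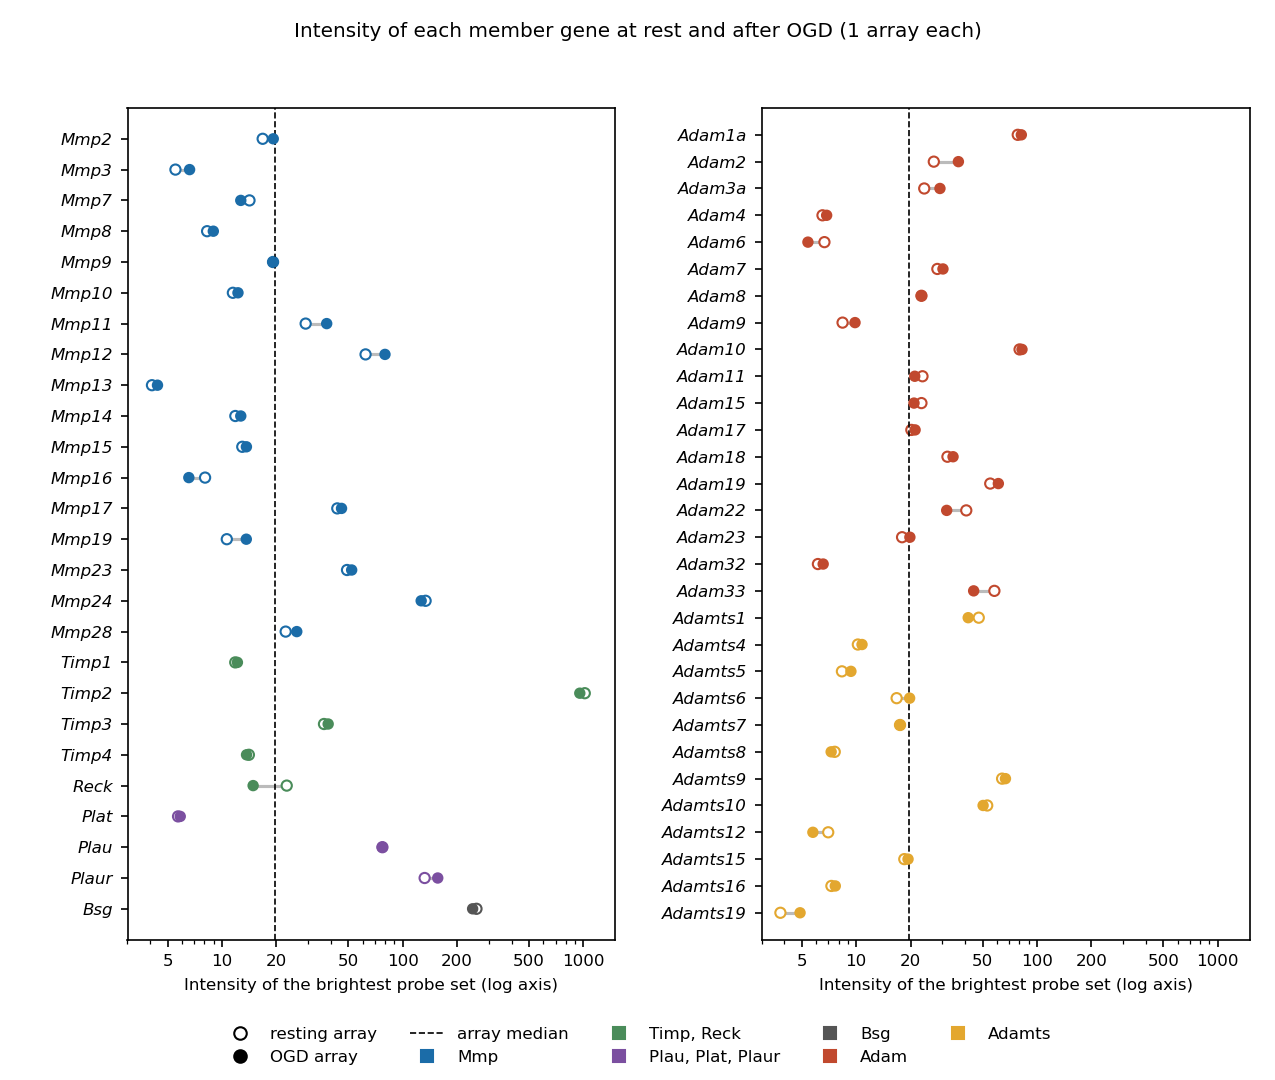
Intensity (log axis) of the brightest probe set of each of the 56 genes on the resting array (open circles) and the OGD array (filled circles), with the array median as a dashed line. The 26 genes that were not measured lie to the left of the line on both arrays, and Reck, Adam23 and Adamts6 cross it.

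With values under the floor raised to it, 0 of the 30 measured genes were higher by 1.5-fold and 0 were lower, where 0.0731% of all measured genes were higher and 0.0418% lower. For Reck, Adam23 and Adamts6 the difference is a bound, so this count does not show that they stayed within 1.5-fold, and the values of Reck as deposited, 22.8 and 14.9, differ by 1.53-fold. At 1.2-fold, a lower threshold, 4 were higher (Adam2, Mmp11, Mmp12 and Adam3a) and 2 were lower (Adam33 and Adam22), where 3.56% of all measured genes were higher and 3.97% lower. Either way, 0.115% of all measured genes passed 1.5-fold and 7.53% passed 1.2-fold. Altogether 18 members (60%) were higher on the OGD array, 10 lower and 2 equal, with a median difference of 0.053. Over all measured genes 42.8% were higher and 51.3% lower, with a median of -0.0076. In RNA from whole cultures, fewer cells of a type and less RNA per cell cannot be told apart.

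**Figure D2:**
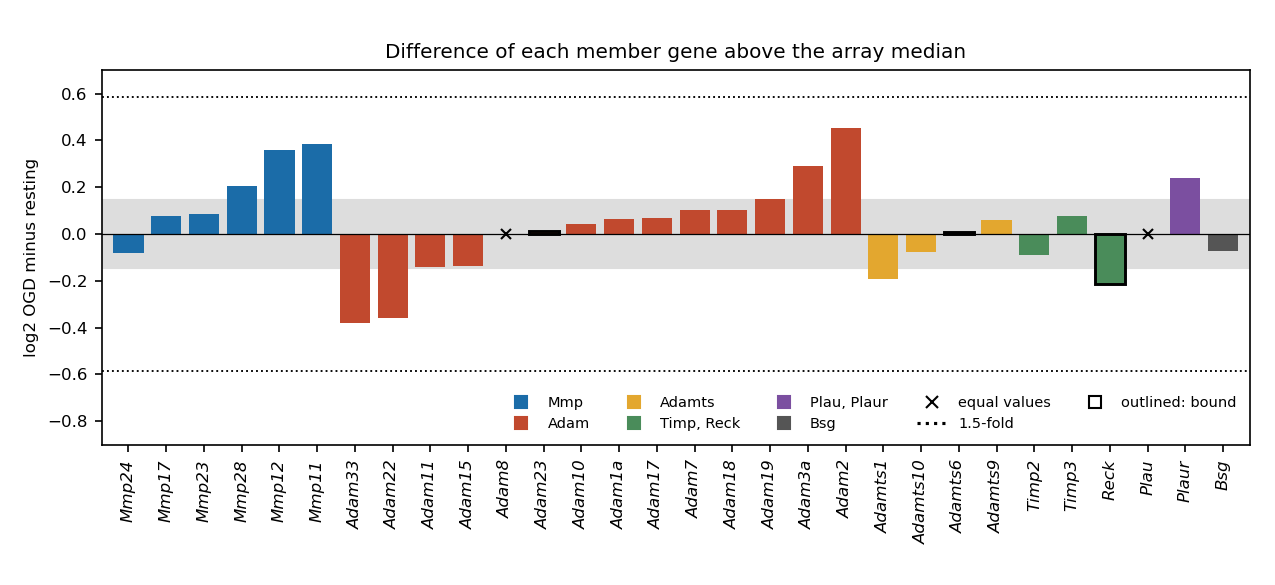
Log2 difference (OGD minus resting) of the 30 measured genes, grouped by family; bars outlined in black are bounds, crosses are equal values, the grey band is 1 SD between probe sets of a gene (0.15) and the dotted lines are 1.5-fold. No bar reaches a dotted line, though that of Reck is a bound, and the values run from -0.38 for Adam33 to 0.45 for Adam2.

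The 3 secreted metalloproteinases that were measured all had higher values on the OGD array. Mmp12, the macrophage elastase, had an intensity of 62.3 at rest and 79.7 after OGD, 1.28-fold higher on the OGD array (log2 difference 0.36). Mmp11, or stromelysin-3, which furin activates inside the cell, had 29.0 and 37.9, 1.31-fold higher (0.39). Mmp28, or epilysin, had 22.5 and 25.9, close to the median on both arrays, with a difference of 0.20. Each of these 3 genes has 1 probe set, so no second measurement of the same RNA stood beside it. With the SD between probe sets over all genes (0.15), differences beyond 2 SD were found in 5.25% of all measured genes. They were found in 5 of the 30 measured members, among them Mmp11 and Mmp12. Within the member genes with several probe sets above the median the SD was larger (0.23), and no count was made with it.

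The best known inflammatory metalloproteinases were not measured. Both gelatinases, which degrade basement membrane collagen, were under the median on both arrays: Mmp9 had exactly 19.2 on each array and Mmp2 had 16.8 at rest and 19.2 after OGD. The values of 19.2 lie just under the median, which was 19.6 at rest and 19.7 after OGD, so these genes are at the edge of the floor. The other probe sets read 4.47 and 5.02 for Mmp9 and 15.5 and 16.1 for Mmp2. The collagenases Mmp8 and Mmp13, the stromelysins Mmp3 and Mmp10 and the matrilysin Mmp7 were also under it, with intensities from 4.10 for Mmp13 to 14.2 for Mmp7 at rest. So was Mmp19, with 10.6 and 13.6. These genes are given no fold.

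Among membrane-bound metalloproteinases Mmp24, known from neurons, Mmp17, which is held by a lipid anchor, and Mmp23 were measured. Mmp24 had 3 probe sets above the median, and they did not run one way: 134 against 126 (log2 difference -0.081), 68.9 against 57.5 (-0.26) and 47.3 against 49.3 (0.059). Mmp17 had 43.4 and 45.8 (0.078). Mmp23 had 49.2 and 52.2 in its brightest probe set (0.085) and 38.2 and 34.6 in the next (-0.14), opposite in sign. Mmp14, which activates the Mmp2 zymogen at the cell surface together with Timp2, was under the median in both of its probe sets (11.9 and 12.7 in the brighter), as were Mmp15 and Mmp16.

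Several metalloproteinase genes stand side by side in the rat genome. In the RefSeq annotation of assembly GRCr8 the 10 protein-coding genes from Mmp13 to Mmp7 on chromosome 8 all belong to the Mmp family, and 6 of them are members here: Mmp13, Mmp12, Mmp3, Mmp10, Mmp8 and Mmp7. Mmp12 was measured and the other 5 were under the median. Mmp1, Mmp1b, Mmp20 and Mmp27 of the same run were not analysed here.

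Promoters of this family are known for the AP-1 element, bound by Fos and Jun proteins. RefSeq promoter windows of GRCr8 were matched for 34 of the 56 genes, and the 250 bases before the first listed start were searched on both strands for TGAGTCA. The element was present in 7 of the 34, or 20.6%, against 3.98% of the windows of all 27457 genes and 3.45% of those of genes on the array. Of these 7, 5 are Mmp genes, out of 11 Mmp windows matched, and all 5 lie in the run on chromosome 8. These neighbours are related genes, so their windows are not independent. They are shown because Mmp12, which was measured, and 4 genes of the run under the median carry the same letters at a like distance, with Plaur and Adam19 as the remaining measured members. Each line gives 60 bases of the plus strand, 5′ to 3′, with the element in capitals, as its reverse complement where it lies on the other strand:
Mmp12: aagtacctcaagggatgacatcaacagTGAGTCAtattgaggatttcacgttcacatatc
Mmp3: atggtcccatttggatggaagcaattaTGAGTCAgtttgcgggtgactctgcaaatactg
Mmp10: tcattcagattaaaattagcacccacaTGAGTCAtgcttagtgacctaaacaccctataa
Mmp7: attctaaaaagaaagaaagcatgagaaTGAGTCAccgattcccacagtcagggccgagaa
Mmp13: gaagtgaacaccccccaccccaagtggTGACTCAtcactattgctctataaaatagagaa
Plaur: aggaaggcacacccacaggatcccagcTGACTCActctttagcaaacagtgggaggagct
Adam19: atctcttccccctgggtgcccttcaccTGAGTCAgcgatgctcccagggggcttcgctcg

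These stretches lie at chr8:12866538-12866597 for Mmp12, chr8:12925183-12925242 for Mmp3, chr8:12974619-12974678 for Mmp10, chr8:13132936-13132995 for Mmp7 and chr8:12782736-12782795 for Mmp13. Those of Plaur and Adam19 are at chr1:89181253-89181312 and chr10:30992565-30992624. The element began 87 bases before the annotated start in Mmp12, 71 in Mmp3, 61 in Mmp10, 80 in Mmp7, 66 in Mmp13, 83 in Plaur and 169 in Adam19. It was present in 3 of 22 matched members that were measured and in 4 of 12 under the median. Over all array genes the element was in 3.28% of windows of measured genes and 3.83% of those under the median. The 4 members under the median are the related genes Mmp3, Mmp10, Mmp7 and Mmp13 of 1 run, so no relation to level is read from these counts. A match of letters is not a site shown to be bound.

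Other letters in the same windows were also counted by level. The GC box GGGCGG, searched on both strands like the other motifs and a feature of broadly active promoters, was in 18 of the 22 measured members (81.8%) and in 2 of the 12 under the median (16.7%). Over all array genes it was in 58.8% of windows of measured genes and 44.2% of those under the median, the same order as in these few members. None of the 6 members in the run on chromosome 8 had the GC box, and all of them but Mmp12 were under the median. These are related genes, so their windows are not independent here either. The 22 members without a window are not covered by these counts. ACGTG, the core of the element bound by hypoxia-inducible factors, was in 6 of the 34 members, or 17.6%, against 16.9% of all windows and 21.0% of those of genes on the array, and these were Adam10, Adam1a, Bsg, Mmp12, Mmp13 and Mmp15. Not in the promoter table were Adam11, Adam18, Adam2, Adam23, Adam32, Adam33, Adam3a, Adam6, Adam7, Adam9, Adamts15, Adamts16, Adamts19, Adamts5, Adamts8, Mmp14, Mmp16, Mmp17, Mmp19, Mmp2, Mmp9 and Plat.

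Of the 7 Adam genes grouped here as active proteases, 6 were measured (85.7%), where 67.4% of all genes were. Adam10, which releases the outer parts of Notch and the amyloid precursor protein, had 80.2 at rest and 82.7 after OGD (log2 difference 0.044). Its other probe set, under the median, read 12.7 and 11.8. Adam17, which releases tumour necrosis factor, had 20.2 and 21.2 (0.069), just above the median on both arrays. Adam8, a protease of leukocytes, had exactly 23.0 at rest and after OGD. Its second probe set read 19.6 at rest, at the edge of the floor and just under it, and 18.7 after OGD. For none of these 3 did the difference exceed the SD between probe sets.

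Adam19, which acts on neuregulin, had 55.2 and 61.2 in its brightest probe set (log2 difference 0.15) and 28.4 and 23.5 in the next (-0.27), opposite in sign. Adam15 had 23.0 and 20.9 (-0.14). Adam33 had 58.2 and 44.7, 1.30-fold lower on the OGD array (-0.38), in its only probe set, whose suffix marks probes shared between transcripts. This was the lowest difference among the members above the median on both arrays. Adam9 was under the median, with 8.41 and 9.85.

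Adam11, Adam22 and Adam23 lack protease activity, and Adam22 and Adam23 are known as synaptic receptors for Lgi1. Adam22 had 40.7 at rest and 31.7 after OGD, 1.28-fold lower (log2 difference -0.36), in 1 of its 3 probe sets. The other 2 were under the median on both arrays, with 7.57 and 6.35 in 1 and 4.07 and 3.36 in the other, and are given no difference. Adam11 had 23.3 and 21.1 (-0.14). Adam23 was above the median on the OGD array only, with 17.9 and 19.8, and its bound of 0.014 gives no usable difference.

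Adam genes known from the testis and epididymis were measured in 5 of 8 cases (62.5%, against 67.4% of all genes), all with 1 probe set. These 5 were higher on the OGD array, as were 42.8% of all measured genes. Adam2, the beta chain of the sperm protein fertilin, had 26.9 and 36.8, 1.37-fold higher (log2 difference 0.45). Adam3a had 23.8 and 29.1, 1.22-fold higher (0.29). Adam1a, the fertilin alpha chain, had 78.3 and 82.0 (0.066). Adam18 had 32.0 and 34.3 and Adam7 had 28.1 and 30.2, each with a difference of 0.10. Except for Adam1a these lay under 2 times the median, where differences of all genes spread most (SD 0.17, with 10.6% past 1.2-fold, against 0.13 and 4.26% over 4 times the median). The 15 measured members under 2 times the median had an SD of 0.22, with 26.7% past 1.2-fold. The 9 at 2 to 4 times had 0.21 and 22.2%, where all genes had 0.15 and 8.26%. The 6 members over 4 times had 0.13 and 0%. Adam4, Adam6 and Adam32 were under the median.

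**Figure D3:**
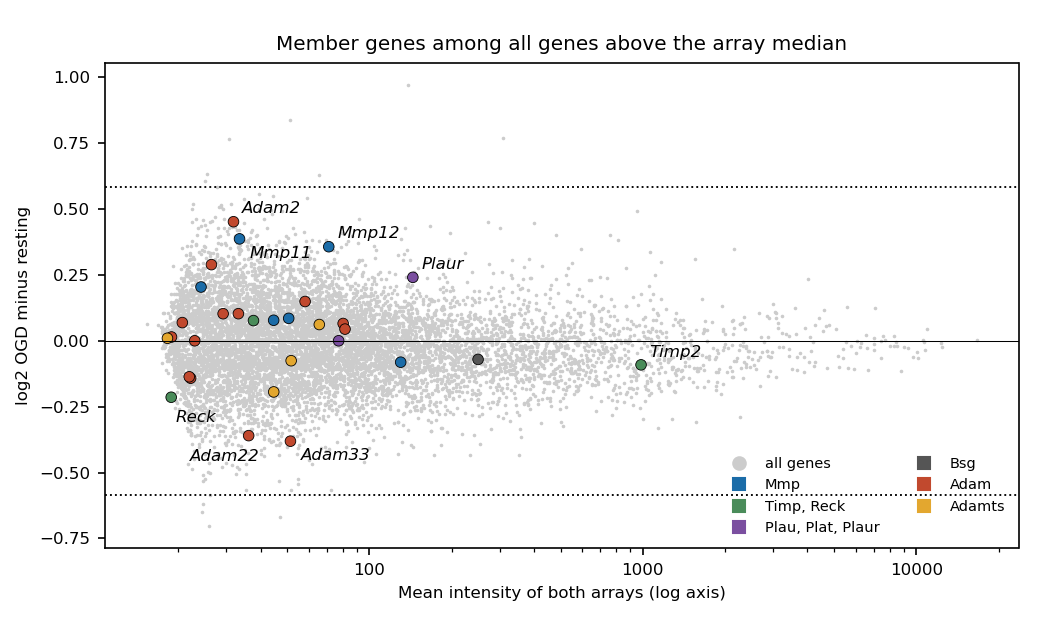
Log2 difference against mean intensity (log axis) for all 9580 measured genes (grey) and the 30 measured members (coloured by family), with dotted lines at 1.5-fold. Members lie within the grey cloud, which is widest at low intensity, and the labelled points past 0.3 in either direction are Adam2, Mmp11, Mmp12, Adam22 and Adam33.

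Of the Adamts genes, the proteoglycan-cleaving Adamts1 had 47.7 at rest and 41.7 after OGD, 1.14-fold lower (log2 difference -0.19). Adamts9, of the same group, had 64.2 and 67.0 (0.062). Adamts10, which binds fibrillin, had 53.1 and 50.4 (-0.076). Adamts6 was above the median on the OGD array only (16.7 and 19.8), with a bound of 0.0096. The aggrecanases Adamts4 and Adamts5 were under the median, with 10.2 and 10.8 for Adamts4 and 8.34 and 9.35 for the brighter probe set of Adamts5. So were Adamts7, Adamts8, Adamts12, Adamts15, Adamts16 and Adamts19. The median of the 4 measured genes was -0.033, and it was 0.062 over the genes above the 30th percentile, so no direction is given for the family.

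Among inhibitors, Timp2, which blocks metalloproteinases and also helps Mmp14 to activate Mmp2, had 1016 at rest and 954 after OGD (log2 difference -0.091). Its other probe set had 24.2 and 31.1, a difference of 0.36 in the opposite direction. Timp3, which is bound to the matrix and also inhibits Adam17, had 36.7 and 38.7 (0.077) in its brightest probe set and 26.1 and 22.6 (-0.21) in the next, while 2 more were under the median. Timp1, the inducible inhibitor, was under the median with 11.8 and 12.2, and Timp4 with 14.1 and 13.7. Reck, a membrane-anchored inhibitor, had 22.8 at rest and 14.9 after OGD in its only probe set. The second value was under the floor, so Reck is given as at least 1.16-fold lower. Taken as deposited, without a floor, its log2 difference was -0.62 (1.53-fold), the only member past 1.5-fold in that setting.

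The plasminogen activator system was represented by urokinase, its receptor and tissue plasminogen activator. Plaur, the urokinase receptor, had 132 at rest and 156 after OGD, 1.18-fold higher (log2 difference 0.24), in a probe set whose suffix marks probes shared between transcripts. Its other probe set, under the median, read 14.9 and 14.0, and the mean over both gave a difference of 0.076. Plau, or urokinase, had exactly 77.2 at rest and after OGD, while a second probe set, under the median, read 13.6 and 16.2. Plat, the tissue plasminogen activator, was under the median with 5.71 and 5.87. Bsg, a membrane glycoprotein known as an inducer of metalloproteinases and a partner of monocarboxylate transporters, had 256 and 244 (-0.071).

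Agreement between probe sets limits what can be read from any single one of them. Of the 17 genes with 2 or more probe sets, 11 had some above and some under the median. In 5 genes (Adam19, Mmp23, Mmp24, Timp2 and Timp3) 2 or more probe sets were above it on both arrays, and in 0 of these 5 did all of them point the same way. Over all 1902 such genes on the array 40.5% pointed the same way. The SD between probe sets was 0.23 within these 5 member genes.

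**Figure D4:**
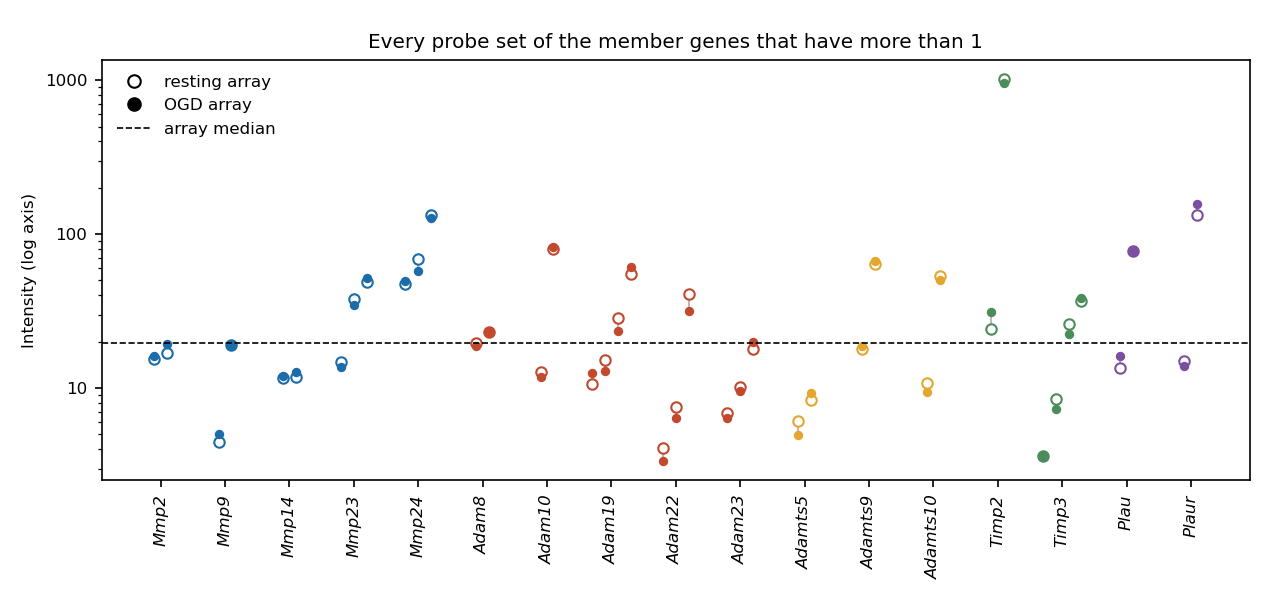
Intensity (log axis) of every probe set of the 17 genes with more than 1, on the resting (open) and OGD (filled) array, with the array median dashed. Probe sets of the same gene can differ widely, as for Timp2 with 1016 and 24.2 at rest.

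Genes that work with these proteases were taken from 8 lists, covering 119 genes, of which 73 were measured. Over them 0 were higher and 0 lower by 1.5-fold, against 0.0731% and 0.0418% of all measured genes. The median difference was 0.036, against -0.0076 over all measured genes. Beside the counts of each list stand the shares of all measured genes, 42.8% higher and 51.3% lower. Cathepsins, the lysosomal proteases, and their cystatin inhibitors were higher in 8 of 10 measured genes, with a median of 0.15. Ctsd had 1011 at rest and 1203 after OGD (0.25), Ctsk 678 and 801 (0.24) and Ctsl 358 and 422 (0.24), and the other probe set of Ctsl had 0.20. Proprotein convertases were lower in 4 of 5 (median -0.10), with differences of -0.26 for Mbtps1, -0.16 for Pcsk4 and -0.10 for Pcsk7. Furin, given above for Mmp11, was measured but is not among the genes named by size of difference.

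Parts of the plasminogen system outside the members were higher in 6 of 8 (median 0.057). The plasminogen receptor Plgrkt was 1.25-fold lower, while Anxa2, which binds tissue plasminogen activator, was 1.17-fold higher (592 and 696), and Igf2r was 1.18-fold higher (0.07 in its other probe set). Partners that carry Adam proteases to the surface had a median of 0.011 over 6 genes, with Rhbdf2, a partner of Adam17, 1.13-fold lower. Tspan15 was 1.09-fold and Tspan5 1.06-fold higher, but the other 2 probe sets of Tspan5 had -0.10 and -0.08. Membrane proteins known as Adam substrates had 0.045 over 17 genes, 10 higher and 5 lower, with the growth factor gene Hbegf 1.18-fold, L1cam 1.15-fold and Tnfrsf1a 1.13-fold higher.

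Transcription factors that bind Mmp promoters had a median of 0 over 9 genes, 4 higher and 4 lower. Jun, a subunit of AP-1, had 204 and 185 (-0.14) but 0.01 in each of 2 other probe sets, Fosl1 had 0.10 and Etv4 0.12. Matrix and basement membrane substrates had 0.064 over 16 genes, 9 higher and 6 lower, with the laminin gene Lama2 1.26-fold, the collagen gene Col1a1 1.15-fold and the brain proteoglycan gene Bcan 1.14-fold higher. Of Adamts-like proteins 2 were measured, Adamtsl2 with 34.7 and 39.7 and Adamtsl5 with exactly 70.2 on both arrays (0.03 in its other probe set).

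Markers of microglia and macrophages were lower on the OGD array in 15 of 17 measured genes, against 51.3% of all measured genes, with a median of -0.096 and a summed intensity of 1966 at rest and 1895 after OGD. Trem2 had 604 and 583, Cd68 371 and 360, and Laptm5 239 and 237. Markers of other cells that a microglial preparation could hold were also looked up. Beside each list's count of measured markers stands the share of all genes above the array median on at least 1 array, 67.4%. Measured were 5 of 9 astrocyte markers (Aldoc 121 and 119, Fgfr3 65.2 and 63.3, Gfap 27.4 and 36.9), while Aqp4, Slc1a3, Aldh1l1 and S100b were under it. Of the fibroblast and meningeal markers 5 of 10 were measured (Pdgfrb 118 and 104, Col1a1 41.9 and 48.4, Igfbp5 38.0 and 46.0), while Col1a2, Col3a1, Dcn, Lum and Postn were under it.

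In the oligodendrocyte lineage 4 of 10 markers were measured (Cnp 42.7 and 44.7, Sox10 39.1 and 37.1, Mbp 30.5 and 35.7), with Mog, Mag, Mobp, Olig1, Olig2 and Pdgfra under the median. Neuron markers were measured in 2 of 10 cases, Elavl3 with 117 and 108 and Syn1 with 48.1 and 56.8, and Rbfox3, Map2, Tubb3, Snap25, Syt1, Nefl, Nefm and Stmn2 were under it. Endothelial markers were measured in 3 of 9 cases (Esam 89.0 and 82.7, Flt1 77.2 and 76.2, Vwf 46.3 and 56.4), with Pecam1, Cldn5, Kdr, Tek, Emcn and Tie1 under it. Of 6 neutrophil markers with a probe set, 1 of which is the member Mmp8, Cxcr2 was measured (25.4 and 24.3), and S100a8, S100a9, Camp, Csf3r and Mmp8 were under it. Summed over each list's markers with a probe set, intensities at rest and after OGD were 304 and 321 for astrocytes, 295 and 292 for fibroblasts, 209 and 217 for the oligodendrocyte lineage, 248 and 252 for neurons, 263 and 268 for endothelium and 66.2 and 70.1 for neutrophils. Median differences of the measured markers were 0.13 for astrocytes, 0.044 for fibroblasts, -0.0052 for the oligodendrocyte lineage, 0.062 for neurons, -0.019 for endothelium and -0.064 for the 1 neutrophil marker. The part of other cell types in the values of the members was not tested.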

How the data were processed

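The deposited values are intensities, 1 summarised linear value per probe set and array, with cDNA primed by oligo(dT) and biotin-labelled, per the labels' protocols. Not given in the sources used here are the authors' background correction, summarisation, scaling and genome build. Of 31042 probe sets besides 57 controls, 20826 named 1 gene in the platform annotation, 436 several and 9780 none. No member shared a probe set with another gene, and all 56 had their Entrez ID in the RefSeq table of GRCr8 under the same symbol.

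Each gene was represented by its brightest probe set, by the mean of the 2 values. Every measured member is named with both values, members under the median are named without a fold, and up to 3 genes per related or marker list are named, by absolute difference or by brightness. Members, lists and motifs were chosen with earlier results of these data known. RefSeq promoters were searched in the first window listed per gene. Calculations were tested on simulated data, with Python 3.11.15, numpy 2.4.6 and pandas 2.3.3. Alternatives were other floors, scalings, thresholds and choices of probe sets, a pseudocount, updated symbols and leaving out equal values. The number of arrays limits the precision.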

Additional observations from a re-analysis of the deposited data

How the results depend on the processing

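The count of members above the median was 30. At the 30th percentile 42 were above the floor, and at the 70th 16 were (28.6%, against 46.7% of all genes). The count lower by 1.5-fold was 0, and it was 1, Reck, with the floor at the 30th percentile or with no floor (-0.62 in both). At a threshold of 1.2-fold 4 members were higher and 2 lower, and at 2-fold 0 were. The median difference ranged from 0.022 with the higher floor to 0.074 with no floor and stayed above 0 in all 14 alternatives. Of 362 differences of the 30 named members under alternatives, 351 moved by less than the SD between probe sets (0.15) and 11 by more. Several alternatives cannot move most of these values, so the share of 351 is not a measure of stability. Updated symbols, genes above the floor on both arrays and leaving out equal values kept every remaining value. Lower floors changed only the genes given as bounds. Signs changed for 5 genes, none under a scaling alternative. With the mean over probe sets Adam10 had -0.029, Adam19 -0.035, Mmp23 -0.052 and Timp2 0.13, since their probe sets differ. Without suffixed probe sets Timp3 had -0.21, and without values on the 0.5 step, an alternative chosen after seeing the data, Timp3 had -0.21 and Adam19 -0.27. Adam33 and Plaur had no value in either setting, so their differences were not checked there. A count above the median with no floor has no meaning and was not made. No paired analysis was possible because each group has 1 array.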

Other observations

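Some deposited values share a decimal part. In 919 probe sets (2.96% of all besides controls) both values left a remainder of 0.165 after division by 0.5, within 0.0001, so that their differences are whole multiples of 0.5. Of the 81 member probe sets 6 (7.41%) were of this kind, and they are the brightest ones of Adam10, Adam19, Adam33, Adamts1, Plaur and Timp3. Their differences in intensity were 2.5 for Adam10, 6 for Adam19, -13.5 for Adam33, -6 for Adamts1, 24 for Plaur and 2 for Timp3.

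Exactly equal values on both arrays were found for 4 member probe sets (4.94%), 1 each of Adam8, Mmp9, Plau and Timp3, against 8.70% of all probe sets besides controls. The sources used here do not say how such values arose.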
